A study of Mus musculus with 12 samples.

Results

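The very broad Ctr9 domains of mouse embryonic stem cells (mESCs) were taken as the rows of the mESC Ctr9 peak list in which the end coordinate minus the start coordinate was at least 4000 bp. This rule gave 868 domains of 44748 peaks (1.94%), and together they covered 5.56 of the 32.8 Mb under all Ctr9 peaks (17.0%). The domains were chosen by their width in the Ctr9 signal itself, so widths and Ctr9 enrichments are described here without a test, and the 6 other peak lists and the RNA-seq are the readouts that the rule did not use. The study mapped the Paf1 complex (Paf1C) on chromatin and compared mESCs with fibroblasts. ChIP-seq, which sequences the DNA pulled down with a protein or histone mark, was made in E14 mESCs (E14TG2a) with antibodies to H3K27ac, to the Ser5p and Ser2p forms of RNA polymerase II (RNAPII) and to the GFP tag of Ctr9 or NELFA. In NIH3T3 cells, an established line of mouse embryonic fibroblasts, it was made for Ctr9-GFP and H3K27ac. Each cell type also had 1 RNA-seq library. Ctr9 carried a C-terminal GFP knock-in in both cell types, from pools of sorted GFP-positive cells and not from single clones, and the NELFA and Ser5p libraries came from a separate mESC line with tagged NELFA. No cells were treated, both lines grew in the same medium with serum and LIF, and every group was 1 library, which leaves all values without a replicate and allowed no test across samples. Intervals are 95% exact Clopper-Pearson intervals and cover counting error only. RNA levels are in TPM, which scales each transcript for its length and for the depth of the library, and a gene was given the value of its highest transcript. The mESC markers Pou5f1, Sox2, Nanog, Esrrb and Zfp42 stood between 211 and 1402 TPM in mESCs and at 0.511 TPM or less in NIH3T3 cells, and the fibroblast markers Col1a1, Col1a2, Col5a1, Thy1 and Fn1 between 94.5 and 1082 TPM in NIH3T3 cells and between 0.132 and 75.7 in mESCs.

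Ctr9 is a core subunit of Paf1C, which travels with RNAPII along transcribed genes and takes part in elongation, histone modification and 3′ end formation. The tail of RNAPII carries Ser5p mainly in the early part of a gene and Ser2p mainly towards and beyond its end, NELFA belongs to the NELF complex that holds polymerase near promoters, and H3K27ac marks active promoters and enhancers. A broad Ctr9 peak is a stretch over which the Ctr9 signal stayed above background without a break.

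The bases around the Ctr9 summit, the position with the most fragments, show where the strongest Ctr9 signal of the widest domains lay. Windows around the summits were read from the RefSeq copy of GRCm38, the assembly also called mm10, for the 5 widest domains. The summit of the widest domain, at Jade1, lay in a UTR exon and is not printed. The other 4 windows follow, with the 11 bases centred on the summit in capitals.
Esrrb, 29146-bp domain, chr12:86480078-86480178, plus strand: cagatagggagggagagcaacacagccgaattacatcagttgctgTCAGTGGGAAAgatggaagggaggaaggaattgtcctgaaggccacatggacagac
Mybl2, 26595-bp domain, chr2:163085244-163085344, plus strand: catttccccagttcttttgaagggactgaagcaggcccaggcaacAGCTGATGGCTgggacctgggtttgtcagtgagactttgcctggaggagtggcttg
Lncenc1, 24793-bp domain, chr13:97493027-97493127, plus strand: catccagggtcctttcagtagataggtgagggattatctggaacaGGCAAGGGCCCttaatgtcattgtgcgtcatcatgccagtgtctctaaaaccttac
Esrrb, 22586-bp domain, chr12:86503160-86503260, plus strand: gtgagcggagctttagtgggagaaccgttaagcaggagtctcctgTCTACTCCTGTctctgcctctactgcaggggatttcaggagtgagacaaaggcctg
Both Esrrb summits and the Lncenc1 summit lay in introns, and the Mybl2 summit lay beyond the end of the gene. These windows held 0 to 2 CpG dinucleotides each, whereas the window at the Jade1 summit held 15 and had a GC content of 78.2%. Over all bases, the domains had a GC content of 48.1% and 16.1 CpG dinucleotides per kb, the narrower Ctr9 peaks had 48.8% and 16.5, and the assembled chromosomes had 41.7% and 8.26. The domains thus lay in DNA richer in GC than the chromosomes as a whole, and close in composition to the narrower Ctr9 peaks. The GC content of single domains ran from 34.8% to 64.7%, with a median of 48.4%.

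The domain with the highest Ctr9 fold enrichment of all, 52.3 over the local background, lay over the miR-290 cluster at chr7:3217737-3223936, a group of miRNAs made from 1 primary transcript in pluripotent cells. It was 6200 bp wide and held 17 of the mature miRNAs in the RefSeq table. Domains also lay over the miR-17-92 cluster (its host gene Mir17hg, 8381 bp, fold 11.8) and over the miR-106b-25 cluster inside Mcm7 (6221 bp, fold 18.1). The miRNAs of these 3 domains with AAGUGC in the seed (bases 2 to 8) are printed because members of all 3 clusters share it, with the seed in capitals.
mmu-miR-290a-3p, chr7:3218674-3218697, plus strand: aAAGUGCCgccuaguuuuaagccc
mmu-miR-291a-3p, chr7:3218968-3218989, plus strand: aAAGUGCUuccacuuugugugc
mmu-miR-291b-3p, chr7:3219529-3219550, plus strand: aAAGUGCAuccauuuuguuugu
mmu-miR-294-3p, chr7:3220691-3220712, plus strand: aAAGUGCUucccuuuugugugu
mmu-miR-295-3p, chr7:3220815-3220837, plus strand: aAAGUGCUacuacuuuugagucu
mmu-miR-17-5p, chr14:115043684-115043706, plus strand: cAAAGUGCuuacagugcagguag
mmu-miR-20a-5p, chr14:115044183-115044205, plus strand: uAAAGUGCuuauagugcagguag
mmu-miR-93-5p, chr5:138165574-138165596, minus strand: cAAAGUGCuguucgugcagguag
mmu-miR-106b-5p, chr5:138165787-138165807, minus strand: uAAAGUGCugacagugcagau
The seed AAGUGCU was shared by 3 miRNAs of the miR-290 cluster, and the seed AAAGUGC, shifted by 1 base, by 4 miRNAs of the other clusters. Of the 1738 mature miRNAs in the table, 103 (5.93%) lay in 35 domains, and of the 16 with AAGUGC in the seed 9 (56.25%) did. These 9 sit in 3 clusters, so they are not independent, and the grouping by seed was made after the domains were seen. The miR-290 domain met 3 H3K27ac and 3 NELFA peaks, while Ser5p covered 94.7% of its width and Ser2p 80.3%. It met no Ctr9 and no H3K27ac peak of NIH3T3 cells. The domain over Mir17hg met 3 Ser5p, 3 Ser2p and 4 NIH3T3 Ctr9 peaks, and the domain in Mcm7 met 2, 2 and 1. Mature miRNAs were not measured by the RNA-seq.

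The domains had a median width of 5460.5 bp (interquartile range 4563.25 to 7085.25 bp), and the median Ctr9 fold enrichment at their summits was 10.8 (3.25 to 52.3). The 43880 narrower Ctr9 peaks had a median width of 384 bp and a median fold of 3.71. Most domains were near the lower limit: 536 were under 6000 bp, 261 were between 6000 and 10000 bp, 61 were between 10000 and 20000 bp, and 10 were wider still. At the limit, the 3 peaks just outside were 3996 bp at Pou5f1, 3998 bp at Csnk1a1 and 3999 bp at Ndor1, with folds of 7.46, 6.98 and 11.4. The 3 domains just inside were 4003 bp in the gene model Gm20388, 4004 bp at Aars and 4005 bp at a site without a gene, with folds of 6.86, 14.4 and 4.70. The limit therefore falls within a continuous range of widths. It also separates peaks of 1 gene. Pou5f1, the pluripotency factor Oct4, had 2 neighbouring Ctr9 peaks, of which the 3996-bp peak over the gene body missed the limit and the 6749-bp peak over its end (fold 16.5) passed it. Wider domains lay at genes with higher median levels. Levels were taken from the protein-coding gene with the most bases in the domain, or from another gene type where there was none. The median over domains was 35.9 TPM in mESCs under 6000 bp and 55.6 TPM up to 10000 bp. It was 67.9 TPM up to 20000 bp and 205 TPM above that. A gene with several domains counts more than once in these medians. Another Ctr9 peak lay within 1000 bp of 87.4% of the domains and of 74.9% of the narrower peaks.

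**Figure D1:**
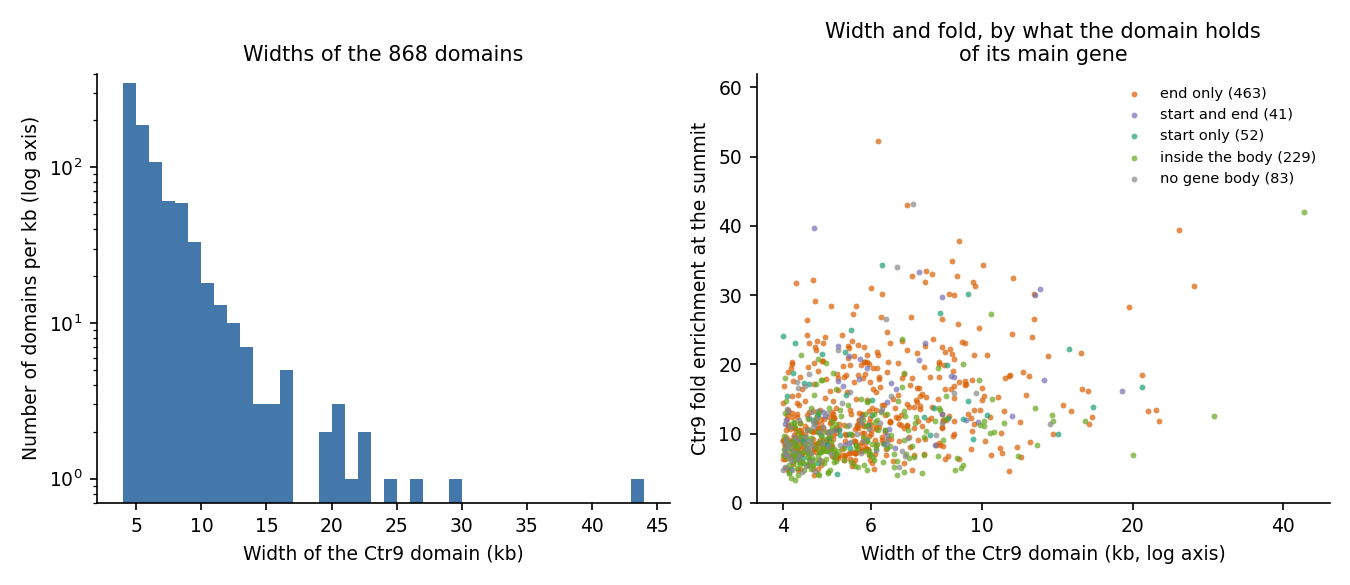
Left, number of domains per kb of width (log axis). Right, Ctr9 fold enrichment at the summit against width in kb (log axis), with each point a domain coloured by what it holds of its main gene. Widths fall off steadily from 4000 bp, and the widest domain, 43967 bp at Jade1, stands alone.

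Jade1, a subunit of a histone acetyltransferase complex, was spanned by domains of 43967 bp (chr3:41556862-41600828, fold 41.9) and 21511 bp, the second of which reached 5745 bp past the gene end. Esrrb, an orphan nuclear receptor of the pluripotency network, held domains of 29146 bp (chr12:86470385-86499530) and 22586 bp in the last part of its 160512-bp body. The first of these met 12 Ser5p peaks, which covered 43.4% of its width, and 3 Ser2p peaks, and the second met 2 Ser5p and 10 Ser2p peaks. Ser5p peaks were thus more numerous in the upstream domain and Ser2p peaks in the downstream one, and neither domain lay near the annotated gene start. Esrrb was at 211 TPM in mESCs and listed at 0 in NIH3T3 cells, and no NIH3T3 peak of either list met its domains.

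Mybl2, a transcription factor that drives cell cycle genes, had a domain of 26595 bp (fold 31.3) that reached 4158 bp past its end. The long non-coding RNA Lncenc1, which is made in naive mESCs, had a domain of 24793 bp (fold 39.4) that reached 10527 bp past its end and was covered over 64.6% of its width by Ser5p and over 61.6% by Ser2p. Klf5, a pluripotency factor, had a domain of 20846 bp over nearly its whole body with 13 Ser5p peaks, the most of any domain. All 3 were higher in mESCs, at 244 against 14.8 TPM for Mybl2, 138 against 0.354 for Lncenc1 and 310 against 14.2 for Klf5. Tdh, the threonine dehydrogenase of mESCs (16587 bp), Spry4, an inhibitor of receptor tyrosine kinase signalling (19037 bp), Mkrn1 (16338 bp) and the ephrin receptor Epha2 (16665 bp) were also among the 15 widest. Tdh was at 401 TPM in mESCs and listed at 0 in NIH3T3 cells, Spry4 was at 82.1 and 3.13 TPM, Mkrn1 at 233 and 8.14, and Epha2 at 71.2 and 22.9.

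The other wide domains lay at genes with similar TPM in both cell types. Dhx9, an RNA helicase, had domains of 22248 and 20040 bp and was at 205 TPM in mESCs and 143 in NIH3T3 cells. Hnrnpu, a nuclear RNA-binding protein, had a domain of 19636 bp (fold 28.3) and was at 382 and 362 TPM. The chromatin remodeller Chd2 had a domain of 20888 bp and was at 24.3 and 13.7 TPM. In NIH3T3 cells, Ctr9 peaks covered 84.4% and 99.0% of the widths of the Dhx9 domains, 100% of the Hnrnpu domain and 75.2% of the Chd2 domain. Of the 15 widest domains, these 4 met a NIH3T3 Ctr9 peak of at least 4000 bp, and the other 11 did not. Srsf3, a splicing factor, was next among the domains shared in this way (15846 bp, 92.3% covered) and stood at 305 TPM in both cell types.

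The 10 domains with the highest Ctr9 folds were mostly not the widest. Jade1 and Lncenc1 were in both sets. After the miR-290 domain (52.3) came a site far from genes on chromosome 16 (43.2), the domain at the end of Gys1 that also covers Ftl1 (43.0), Jade1 (41.9), the histone gene Hist1h3c (39.7) and Lncenc1 (39.4). The translation factor Eif4a2 (37.8), the ribosomal protein gene Rpl3 (34.9), the RNA helicase Ddx5 (34.4) and Rcc1 with the snoRNA host Snhg3 (34.3) followed. Rpl3 was at 1607 TPM in mESCs and 1279 in NIH3T3 cells, Ddx5 was at 475 and 406 TPM, and NIH3T3 Ctr9 peaks covered 99.3% and 100% of these domains. Of the 10, Gys1, Hist1h3c, Eif4a2, Rpl3, Ddx5 and Rcc1 met all 6 other lists. Among the domains with no protein-coding gene, the widest after Lncenc1 at a gene were Malat1 (13060 bp), a nuclear long RNA whose domain met all 6 other lists, and Dleu2 (12766 bp, 9.74 and 4.57 TPM), whose domain met 4 Ser2p and 2 NIH3T3 Ctr9 peaks.

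**Figure D2:**
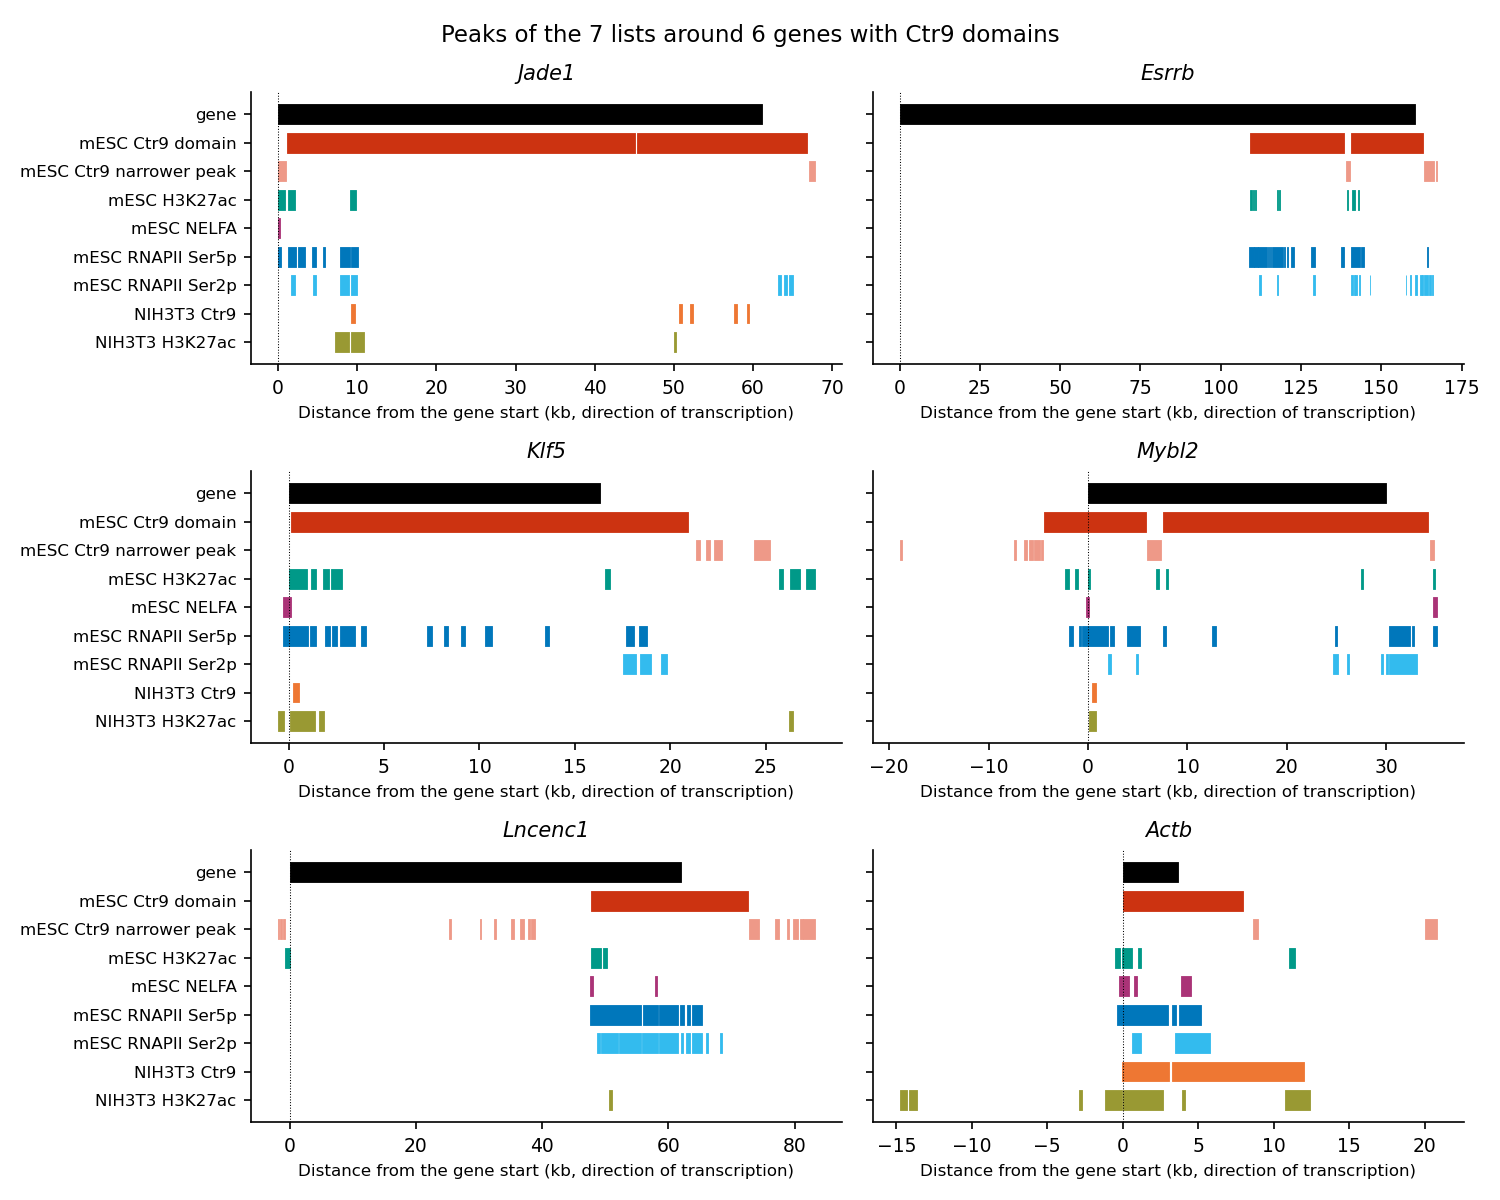
Peaks of the 7 lists and the gene body (rows) around Jade1, Esrrb, Klf5, Mybl2, Lncenc1 and Actb, as distance from the gene start in kb in the direction of transcription. Ctr9 domains run on to or past the gene end at all 6 genes. At Esrrb and Lncenc1 they begin far inside the annotated gene. A NELFA peak (fold 10.0) and Ser5p and H3K27ac peaks lie at the upstream edge of the Lncenc1 domain. Ser5p and H3K27ac peaks lie at that edge of the wider Esrrb domain. Whether transcription starts at these edges was not tested. At Actb 2 NIH3T3 Ctr9 peaks cover most of the domain, the wider of them mainly past the gene end.

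To place the domains on genes, each was given a main gene, the protein-coding gene with the most body bases in the domain, or a gene of another type where there was none. A protein-coding main gene was found for 743 domains (663 distinct genes, 58 of them with 2 or more domains), 42 had a main gene of another type, 24 of these a lincRNA, and 83 met no gene body. The end of the main gene lay in 504 domains (58.1%) and its start in 93 (10.7%). No such share is given for the narrower Ctr9 peaks, and a wider region holds a gene end or start more easily. With a limit of 3000 bp the share with the end was 50.3%, and with 6000 bp it was 67.8%. For 12 of the domains the rule gave Gm20388, a very long gene model on chromosome 8 that spans other genes. By class, 463 domains held the end alone, 41 the start and the end, 52 the start alone, and 229 lay inside the body. A start or an end counted only if its outermost annotated base lay in the domain. The Klf5 and Hnrnpu domains, over 99.4% and 99.7% of the body, missed the first bases and count as end alone. By this count the domains held gene ends more often than gene starts, and the classes rest on it. Median widths were 5759 bp for domains with the end alone, 6453 bp with both, 5264 bp with the start alone and 4966 bp inside the body. The genes held whole were short, with a median length of 3130 bp against 13878 bp for genes held at the end alone and 33840 bp for genes with a domain inside the body.

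Where a domain held a gene end, it reached past it by a median of 2710 bp (interquartile range 1915.25 to 3884.5 bp), by over 5000 bp in 59 domains and by over 10000 bp in 4, with a farthest reach of 15094 bp. The Ctr9 summit lay past the end in 334 of the 504 (66.3%), at a median of 601.5 bp beyond it. The other readouts were placed differently along the same domains. Of the Ser2p summits in them, 59.4% lay past the gene end (55.7% to 63.0%, n = 726, median 439.5 bp past it), against 47.1% of Ser5p summits (43.6% to 50.6%, n = 803, median 220 bp before it), 47.3% of NELFA summits (39.1% to 55.6%, n = 150) and 39.3% of H3K27ac summits (33.9% to 44.9%, n = 318, median 1305 bp before it). Ser2p summits were densest at 500 bp past the end, with 100 in a window of 500 bp, and Ser5p summits had their highest count there too, 92. NELFA and H3K27ac summits were few at the end itself, 2 and 7, and more frequent on both sides of it, with 14 and 20 at 2500 bp before it and 21 and 14 at 500 bp past it. In the 93 domains that held a start, the Ctr9 summit lay past the start in 77.4%, at a median of 1187 bp into the gene or beyond. Summits within 1 domain and 1 library are not independent, and a domain can hold the start of a neighbouring gene. Of all bases in domains, 64.4% lay in protein-coding gene bodies and 24.6% in the 5000 bp downstream of an end, against 65.6% and 23.3% for the narrower Ctr9 peaks, so in bases the domains were placed much like the rest of the list.

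**Figure D3:**
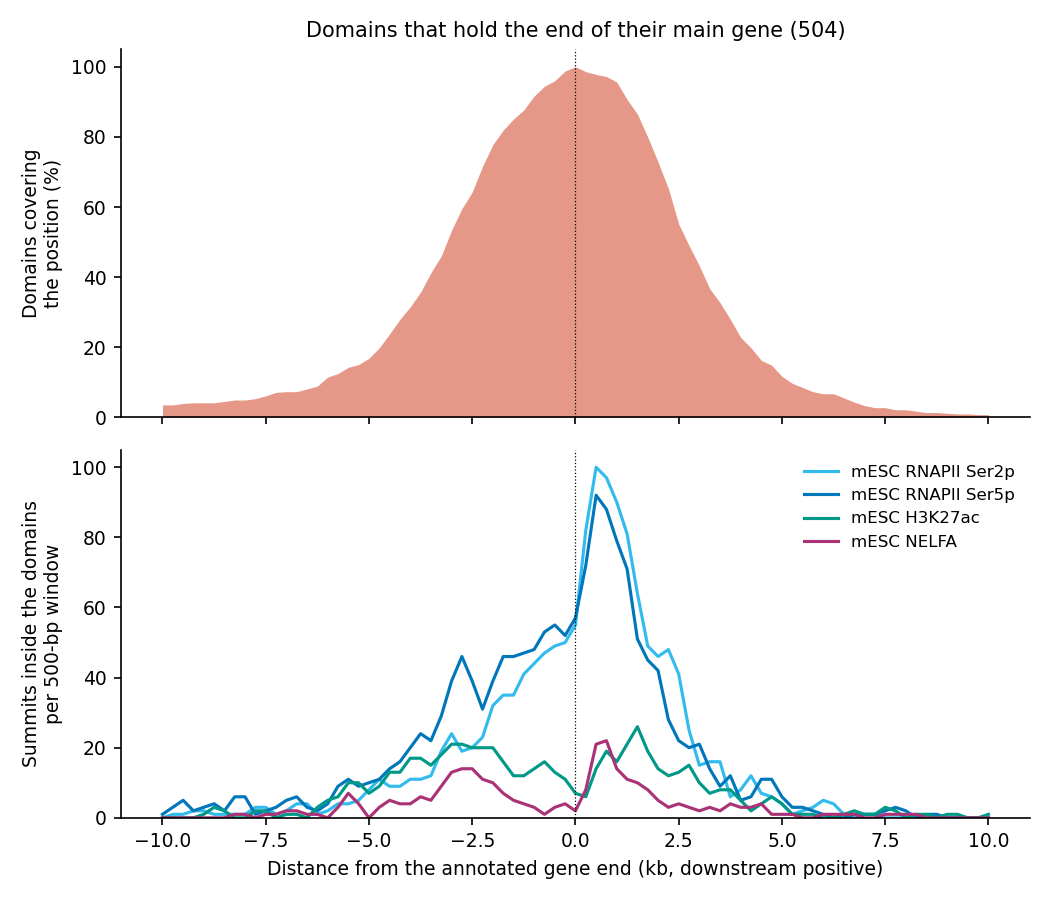
Top, share of the 504 domains that cover each distance from the end of their main gene (kb, downstream positive). Bottom, number of summits of 4 mESC lists inside these domains, per window of 500 bp. Ser2p and Ser5p counts are highest at 500 bp past the end, 100 and 92 summits, and NELFA and H3K27ac counts are low at the end itself.

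The domains were then compared with the 4 other mESC lists. Ser2p peaks met 486 domains (56.0%, 52.6% to 59.3%) against 2.40% of all mESC Ctr9 peaks, and Ser5p peaks met 469 (54.0%, 50.7% to 57.4%) against 5.60%. H3K27ac met 360 (41.5%, 38.2% to 44.8%) against 9.30%, and NELFA met 198 (22.8%, 20.1% to 25.7%) against 1.82%. A wide region meets more peaks by its length alone, so the summits of each list were also counted per Mb of region. Ser2p had 179 summits per Mb in domains and 24.6 in narrower Ctr9 peaks, a ratio of 7.27. The ratio was 3.13 for Ser5p (211 against 67.5 per Mb), 2.69 for NELFA (39.5 against 14.7) and 0.863 for H3K27ac (97.4 against 113). By bases, Ser5p peaks covered 21.0% of the domains against 4.13% of the narrower peaks, Ser2p 14.0% against 1.28%, NELFA 1.72% against 0.680%, and H3K27ac 6.02% against 5.80%. Ser2p, Ser5p and NELFA were thus denser in the domains by both measures, and H3K27ac was slightly lower by summits and slightly higher by bases. Of the whole Ser2p list, 997 of 1675 summits (59.5%, 57.1% to 61.9%) lay in the domains, against 26.2% of Ser5p, 11.1% of NELFA and 2.79% of H3K27ac summits. The number of reads reached in each ChIP-seq library is not known here, so a domain without a peak of a list may carry that mark below the limit of detection.

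**Figure D4:**
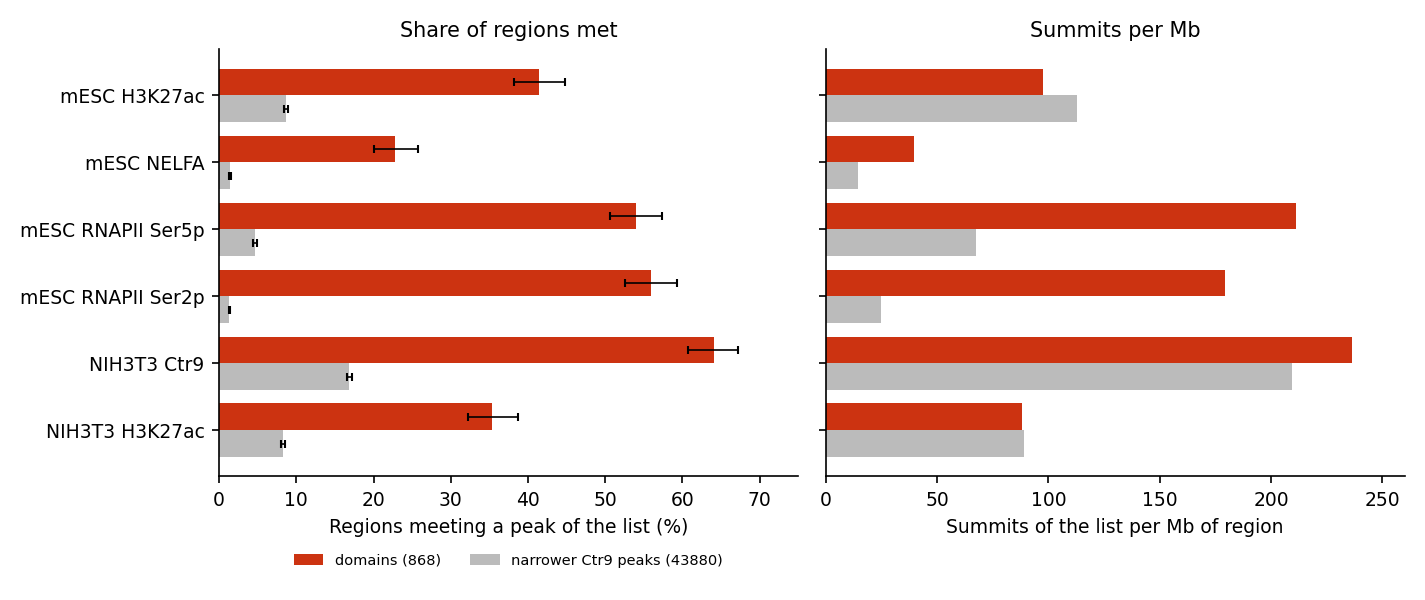
Left, share of regions that meet a peak of each of the 6 other lists, for the 868 domains and the 43880 narrower Ctr9 peaks, with 95% exact intervals. Right, summits of each list per Mb of region. By summits per Mb, Ser2p differs most by ratio, 179 against 24.6, and H3K27ac is close, 97.4 against 113. By share of regions, H3K27ac is not close, 41.5% against 8.66%.

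Both polymerase forms met 374 domains, Ser5p alone 95, Ser2p alone 112, and neither 287. Domains with both held the gene end in 73.8% of cases and had main genes at a median of 75.7 TPM in mESCs. Domains with Ser5p alone held it in 29.5%, met H3K27ac in 76.8%, and had main genes at a median of 38.0 TPM. Domains with Ser2p alone held the end in 58.9%, met H3K27ac in only 15.2%, and had main genes at 33.2 TPM. The domains with Ser5p and no Ser2p were thus those with the most H3K27ac and the fewest gene ends. By position, H3K27ac met 85.4% of the domains that held a whole gene and 40.2% of those with the end alone, NELFA met 63.4% and 23.5%, and Ser2p met 87.8% and 66.1%. Ser2p met 36.7% of the domains inside a body and 31.3% of those without a gene.

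All 6 other lists met 127 domains, and none of them met 90 (10.4%). The 127 had a median width of 6453 bp and main genes at a median of 306 TPM in mESCs and 234 in NIH3T3 cells. The 90 had a median width of 4525 bp, a median Ctr9 fold of 7.52 and main genes at 33.3 and 8.64 TPM. The widest domains with no other list lay at Tet1, the 5-methylcytosine dioxygenase (11798 bp, fold 6.77), at Xab2 (7189 bp), at the pluripotency factor Sall4 (7123 bp, fold 10.5), 3215 bp from Cdca2 (7030 bp) and at Lman2 (6993 bp). Tet1 was at 55.4 TPM in mESCs and 1.88 in NIH3T3 cells, and Sall4 was at 75.3 TPM and listed at 0. Xab2 and Lman2 were at 51.2 and 26.0 TPM in mESCs, and at 30.8 and 34.9 in NIH3T3 cells. Tet1 and Sall4 also had other domains that did meet other lists. A 6402-bp domain of Tet1 met 3 Ser5p, 2 Ser2p and 1 H3K27ac peak, and a 7144-bp domain at the end of Sall4 met 1 Ser2p peak.

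Most of the genes covered were highly expressed. A domain met the body of 1006 protein-coding genes (4.59% of 21938) and covered at least 50% of the body in 294 (1.34%) and the whole body in 61. The genes covered to at least 50% had a median of 92.8 TPM in mESCs and 44.4 in NIH3T3 cells, against 1.24 and 0.801 over all protein-coding genes. Of the 293 with a TPM, 194 (66.2%) were in the high class, the top 25% of expressed genes (at least 21.6 TPM), against 18.4% of all genes, and 30 were under 1 TPM in mESCs, against 48.7% of all genes. They were also short, with a median length of 4426.5 bp against 17425 bp for all genes. Short genes are covered to 50% more easily, and met genes of any length had a median of 35.3 TPM.

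Seen from the side of expression, a domain met 80 of the top 100 protein-coding genes by TPM in mESCs (95% interval of the share 70.8% to 87.3%), and 66 of these were covered to at least 50%. The share fell to 41.6% over the top 500, 28.6% over the top 1000, 21.2% over the top 2000 and 10.0% over the top 8000. The covered gene with the highest level was Tpt1, the tumour protein TCTP, at 6525 TPM in mESCs and 3519.9 in NIH3T3 cells. Of the 20 that no domain met, Eef2, an elongation factor of translation at 1979 TPM, Gm11808 and Rps12-ps3 had no Ctr9 peak, and the others had narrower peaks, among them Ptma (4615 TPM) and Tuba1b (1330.4 TPM). Some of the 20 are processed copies such as Ftl1-ps1 and Rps12-ps3, whose reads can be shared with a near-identical gene, so their levels are uncertain. Across the 782 domains with a main gene that had a TPM, Spearman's rho was 0.20 between width and TPM, 0.25 between Ctr9 fold and TPM, and −0.05 between width and gene length, and domains at 1 gene share that gene's value.

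Ribosomal protein genes were the largest group under the domains. The list of 82 cytosolic ribosomal protein genes was taken by symbol, with like-named genes such as Rpl7l1, Rpl39l, Rpl10l and Rpl3l in it. Of the 82, a domain met 64 and covered at least 50% of 56, against 4.59% and 1.34% of all protein-coding genes. These shares, 78.0% and 68.3%, were close to those of the top 100 genes by TPM, 80% and 66%. That set is of like length (median 3760 bp, against 3266 bp) and includes many of these genes. Because these genes count in both shares, the likeness was partly fixed in advance. Whether the family differs from other genes of like level and length was not tested. The domains on these 64 were 4155 to 12397 bp wide with folds of 6.16 to 34.9, and the genes stood between 74.3 and 3972 TPM in mESCs and between 128 and 4307 in NIH3T3 cells. The narrowest of these domains and the lowest mESC level were those of Rpl7l1. Rps24 was at 3972 TPM under a domain of 12060 bp, and Rpl13 at 3448 TPM under 4893 bp. Rplp1 was at 3353 TPM under 5902 bp. Every one of the 64 met Ser5p and NIH3T3 Ctr9 peaks, and 49 were also met by a NIH3T3 Ctr9 peak of at least 4000 bp, against 2.07% of all protein-coding genes. Of the 18 not met, several fell just short in width. The widest Ctr9 peak was 3873 bp on Rps13, 3837 bp on Rps2, 3835 bp on Rps15 and 3718 bp on Rpl10, while Rpl39l, Rpl10l and Rpl3l had no Ctr9 peak. Many of these genes have processed copies elsewhere in the genome, so both their TPM and reads mapped to them are uncertain.

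Other housekeeping groups were met less fully. Of all protein-coding genes, 4.59% were met, 1.34% were covered to at least 50%, and 2.07% were met by a wide NIH3T3 Ctr9 peak. These groups hold many genes of high level, and 41.6% of the top 500 and 28.6% of the top 1000 genes by TPM were met. The chaperones (24.0%) and cytoskeletal genes (25.9%) lay below both shares, and the splicing factors (60.6%) lay above both. Of 33 SR and hnRNP splicing factors, a domain met 20 and covered at least 50% of 11. Hnrnpa2b1 (6997 bp, 98.4% of the body), Srsf2 (6990 bp, 97.8%) and Hnrnpu (99.7%) were covered almost whole, and Hnrnpk (4468 bp, 6.62%) and Hnrnpc (10256 bp, 8.20%) were covered only at the end. Of these 20 genes, 16 were met by a NIH3T3 Ctr9 peak of at least 4000 bp. Of 23 translation factors 9 were met, with 5 covered to at least 50%, and all 9 were met by a wide Ctr9 peak in NIH3T3 cells. Eif4a2, an RNA helicase of translation initiation, had the seventh-highest fold of all domains (37.8, 9017 bp) at 117 TPM in mESCs and 115 in NIH3T3 cells. Of 25 chaperones 6 were met, among them Hsp90ab1 (8586 bp, 3921 and 2273 TPM), Ppia (7744 bp, 3727 and 3083 TPM) and Hsp90aa1 (11537 bp, 3455 and 585 TPM). Of 27 cytoskeletal genes 7 were met, and all 7 were covered to at least 50%, among them Actb (7960 bp, fold 33.1) and Tubb5 (7089 bp). Actb, which encodes beta-actin, was at 1157 TPM in mESCs and 2120.2 in NIH3T3 cells. Of 20 glycolysis genes 7 were met. Gapdh (6018 bp, 2109.7 and 1690.2 TPM) was met by wide Ctr9 peaks in both cell types, whereas Slc2a3, a glucose transporter at 362 and 1.86 TPM, lay under a domain of 16278 bp in mESCs and no NIH3T3 Ctr9 peak.

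Of 30 pluripotency genes, a domain met 17 (56.7%) and covered at least 50% of 11, against 4.59% and 1.34% of all protein-coding genes. The median level of the list was 150 TPM in mESCs. Of the top 500 genes by TPM 41.6% were met, and of the top 1000 28.6%. Sox2 (8814 bp, fold 18.2), Dppa5a (4507 bp, fold 12.2) and Lefty1 (5279 bp, fold 16.8) were covered whole, Zfp42, also called Rex1, to 98.8% (12708 bp, fold 30.1), Klf2 to 97.9% (6651 bp, fold 15.1), Gdf3 to 96.5% and Tbx3 to 88.4%. Tdgf1, a co-receptor for Nodal, was covered to 59.2% (5829 bp, fold 20.4), L1td1 to 52.3% (12571 bp, fold 24.0) and Sall4 to 55.2%. Fgf4, a growth factor of mESCs, was met over 11.8% of its body by a domain of 6318 bp (fold 30.2). The levels in mESCs ran from 3190.4 TPM for Dppa5a and 784 for Tdgf1 to 38.7 for Tbx3, and in NIH3T3 cells Sox2, Zfp42, Tdgf1, L1td1, Lefty1, Fgf4, Nodal, Sall4, Esrrb and Pou5f1 were listed at 0. Of the 17, only Trim28 (664.9 and 200.03 TPM) was met by a NIH3T3 Ctr9 peak of at least 4000 bp. Such a peak met 2.07% of all protein-coding genes, so a low count here does not set these genes apart. The 13 not met included Nanog (281 TPM), Lin28a (155 TPM) and Tcl1 (146 TPM), whose widest Ctr9 peaks were 3848, 3859 and 3731 bp, all just under the limit, together with Dppa3 (1.23 TPM) and Prdm14 (17.1 TPM), which had no Ctr9 peak.

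Among 17 snoRNA hosts and nuclear long RNAs 11 were met and 9 covered to at least 50%, among them Snhg1 (5161 bp, 67.1 and 143 TPM), Snhg3 (6317 bp, fold 34.3, in the domain assigned to its neighbour Rcc1) and Malat1 (13060 bp, fold 30.9, 24.5 and 112 TPM). The shares over protein-coding genes are no background for this mix of gene types, and none was computed for the mix. Of 5854 annotated lincRNA genes, the type of Malat1, the domains met 53. Of 20 immediate early genes 3 were met, Ier2, Junb and Egr1, each covered to at least 50%. This was 15% by both measures, against 4.59% and 1.34% of all protein-coding genes. A wide NIH3T3 Ctr9 peak met 7 of the others, against 2.07% of all protein-coding genes. Of 25 cell cycle genes 5 were met (20.0%, against the same 4.59%). The median level of this list was 126 TPM in mESCs. Its share lay below the 28.6% met of the top 1000 genes by TPM. Of 67 replication-dependent histone genes 2 were met (2.99%, against 4.59% of all protein-coding genes), Hist1h3c and Hist1h2bb, by 1 domain of 4617 bp with a fold of 39.7, the fifth-highest, although their levels were 2.06 and 0.882 TPM. Histone messages of this kind carry no poly(A) tail and are near-identical between copies, and how the RNA-seq library treated them is not given in the sources used here. Of 11 DNA methylation genes 1, Tet1, was met (9.09%, against 4.59%). Of 15 fibroblast markers, 6 Paf1C genes and 4 ID genes 0 were met, lists so short that the background share would give fewer than 1 member each. A wide Ctr9 peak in NIH3T3 cells met 5 of the fibroblast markers, against 2.07% of all protein-coding genes.

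Small RNA genes were frequent in the domains, which held 127 annotated snoRNA genes in 53 domains, 22.8 per Mb against 3.57 per Mb in narrower Ctr9 peaks, and 75 annotated miRNA genes in 48 domains, 13.5 against 5.22 per Mb. lincRNA genes were met at 9.53 per Mb against 13.3, and antisense genes at 8.63 against 18.8. Many narrow regions can meet more long genes per Mb than a few wide ones, so these lower values do not show a depletion. snoRNAs are mostly cut from the introns of genes for ribosomal proteins, translation factors and Snhg transcripts, groups that the domains met often, and a count per domain can hold several from 1 host.

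Compared with fibroblasts, 556 domains (64.1%, 60.8% to 67.3%) met a NIH3T3 Ctr9 peak, against 17.8% of all mESC Ctr9 peaks, and 312 met none. Per Mb the NIH3T3 Ctr9 summits were 236 in domains and 209 in narrower peaks, a ratio of 1.13. NIH3T3 H3K27ac met 307 domains (35.4%, 32.2% to 38.7%) against 8.81%, with 88.1 and 89.2 summits per Mb. By bases, NIH3T3 Ctr9 peaks covered 39.3% of the domains against 15.1% of the narrower Ctr9 peaks, and NIH3T3 H3K27ac 8.65% against 6.66%. The domains thus held NIH3T3 summits at close to the density of the narrower peaks, while the NIH3T3 peaks in them covered a larger share of their bases. A NIH3T3 Ctr9 peak of at least 4000 bp met 203 domains (23.4%), and 199 of the 455 such NIH3T3 peaks (43.7%) met a domain.

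The main genes of the domains without a NIH3T3 Ctr9 peak had a median of 28.2 TPM in mESCs and 5.71 in NIH3T3 cells (237 genes), and those of the domains with one had 54.0 and 36.1 (479 genes). The log2 ratio of mESC over NIH3T3 levels, each with a pseudocount of 1 TPM, had a median of 1.52 in the first set and 0.22 in the second. At least 2-fold higher in mESCs were 59.9% of the first set and 20.9% of the second, against 13.5% of all protein-coding genes, and at least 2-fold lower were 5.49% of the first and 7.93% of the second, against 11.3%. A domain without Ctr9 in NIH3T3 cells thus lay mostly at a gene with a higher level in mESCs. The 203 domains that met a wide NIH3T3 peak lay at genes with high and similar levels, 174 and 156 TPM by the median (183 genes, median log2 ratio 0.08), and 74.9% of them met Ser2p. In NIH3T3 cells, H3K27ac met 46.2% of the domains with and 16.0% of those without a NIH3T3 Ctr9 peak, whereas mESC H3K27ac met 43.7% and 37.5%.

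**Figure D5:**
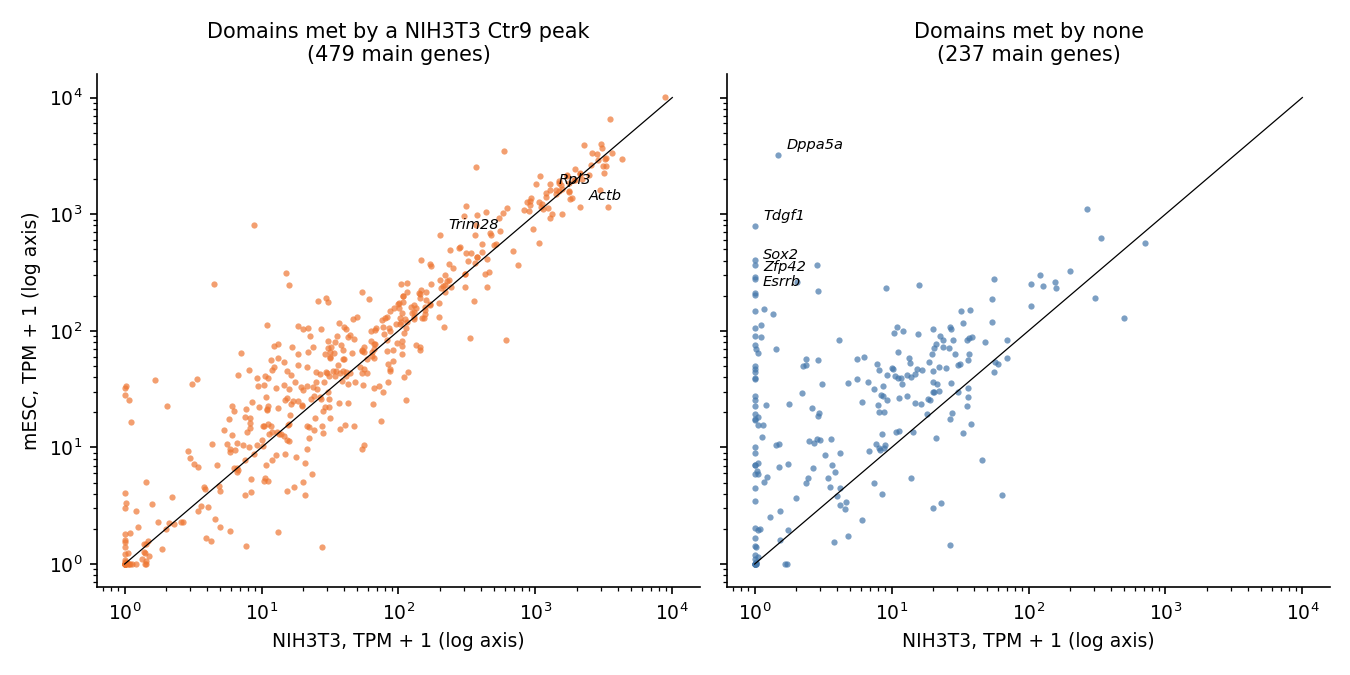
TPM plus 1 of each main gene in mESCs against NIH3T3 cells (log axes), for domains that a NIH3T3 Ctr9 peak met (left, 479 genes) and did not meet (right, 237 genes), with the line of equal levels. The left points lie along the line and most of the right points lie above it, with medians of 54.0 and 36.1 TPM on the left and 28.2 and 5.71 TPM on the right.

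Over all genes covered to at least 50%, the median log2 ratio was 0.21, against 0.00 for all protein-coding genes, and 68 (23.2%) were at least 2-fold higher and 25 (8.53%) at least 2-fold lower in mESCs. The highest ratios belonged to Dppa5a, at 3190.4 TPM in mESCs and 0.482 in NIH3T3 cells, and to Tdgf1, Tdh, Sox2 and Zfp42, which were listed at 0 in NIH3T3 cells. The domains over all 5 met no NIH3T3 Ctr9 peak. The lowest ratio belonged to Ftl1, the ferritin light chain, at 4.35 TPM in mESCs and 1965 in NIH3T3 cells, under a domain of 7076 bp with the third-highest fold (43.0) that Ser5p covered over 78.5% of its width. The near-identical copy Ftl1-ps1 was listed at 2335 TPM in mESCs and 5.54 in NIH3T3 cells, so the level of Ftl1 itself is uncertain. Next were Hspb6 (2.33 and 22.0 TPM), Tcf19 (6.75 and 44.4 TPM), 2310039H08Rik (2.98 and 21.2 TPM) and Elovl1 (8.74 and 53.0 TPM), and Tcf19 lies beside Pou5f1 under the same 6749-bp domain.

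Some domains lay at genes with little or no message. The main gene was under 1 TPM in mESCs for 70 domains. Of these, 22 also met another gene of the high class and 25 more lay within 5000 bp downstream of one, and 23 did neither. The widest of the 70 was a domain of 13880 bp over Phykpl (0.983 TPM) that also covered 64.8% of Hnrnpab (481 TPM), and the next, 12397 bp at the end of Matn2 (0.408 TPM, and 26.7 in NIH3T3 cells), also lay over the ribosomal protein gene Rpl30. Il12rb2 (11914 bp), Slc10a1 (10911 bp) and Il4i1 (10374 bp) followed, at 0.0422 TPM, listed at 0, and at 0.579 TPM. NIH3T3 Ctr9 peaks covered 96.8%, 52.5% and 45.0% of these domains. The Il12rb2 domain met 2 protein-coding genes and the Il4i1 domain 3, so the main gene need not be the one transcribed there. Ser2p met 64.3% of the 70 and H3K27ac 31.4%. Of all domains, 677 (78.0%) met a high-class gene or lay within 5000 bp downstream of the end of one, against 58.6% of all mESC Ctr9 peaks. Of all domains, 158 would change their main gene if the gene with the highest TPM were taken.

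Of the 83 domains that met no gene body, 45 lay within 5000 bp downstream of a protein-coding gene end, and 32 of these met a NIH3T3 Ctr9 peak and 13 met Ser2p. The widest of them, 9713 bp, lay 390 bp past the end of Zfp207 and met 4 NIH3T3 Ctr9 peaks. Another 15 lay over 20000 bp from any protein-coding gene, and of these 11 met Ser5p, 10 H3K27ac, 6 Ser2p, 4 NELFA and only 1 a NIH3T3 Ctr9 peak. The one with the highest fold, 7269 bp at chr16:25521856-25529124 with the second-highest fold of all domains (43.2), lay 99511 bp from Tprg and met 3 H3K27ac peaks and 1 NELFA peak, with Ser5p over 48.1% of its width and Ser2p over 48.6%. The widest, 13698 bp at chr5:33473184-33486881, lay 39207 bp from Nkx1-1 and met 5 Ser2p peaks and no other list. Ctr9 of NIH3T3 cells was thus met by most of the domains just downstream of genes and by 1 of those far from genes, a difference that was not tested.

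Super enhancers, long clusters of enhancers as the study lists them for mESCs, were met by 54 domains (6.22%) against 1.81% of all Ctr9 peaks, and 47 of the super enhancers met a domain. The share was 17.1% of the 41 domains that held a whole gene, 12.0% of the 83 without a gene, 6.99% of the 229 inside a body and 3.24% of the 463 with the end alone. Among them were both Esrrb domains, those of Mybl2, Tdh and Spry4, and the miR-290 domain. Super enhancers are long themselves, so a share by overlap depends on both lengths. Of the domains, 3.80% had their Ctr9 summit inside one, a share that is not given here for all Ctr9 peaks.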

How the data were processed

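ChIP-seq reads of 7 libraries were mapped to mm10 with Bowtie2 2.3.5.1 and peaks were called per library with MACS2 2.2.6 by the authors. The deposited peak lists hold a score, a fold enrichment ratio over background, and −log10 p and q values per peak, and the lowest −log10 q in the mESC Ctr9 list was 2.01. The read totals reached by the ChIP-seq libraries are not given in the sources used here, so only a target depth per sample is known, and 3 input libraries were not used here. The RNA-seq tables deposited by the authors hold estimated counts and TPM per transcript from kallisto 0.46.1 on GENCODE M19, with 26400407 estimated counts in mESCs and 28849497 in NIH3T3 cells. Whether the RNA was poly(A) selected is not given in the sources used here.

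From these files, domains were the mESC Ctr9 peaks of at least 4000 bp, an overlap needed 1 bp, and a gene took the TPM of its highest transcript. Gene bodies and types came from the GENCODE M21 annotation of GRCm38, and sequences and miRNAs from RefSeq (GRCm38.p6). Super enhancer coordinates came from the supplement of the study. Expression differences were log2 ratios of TPM with a pseudocount of 1. The authors' design gave 1 library per group, so no test across samples was made, and 95% exact Clopper-Pearson intervals cover counting error only. Peaks in domains were compared with those in narrower Ctr9 peaks by share and by summits per Mb.

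Domains named in the text are the 15 widest, the 10 with the highest Ctr9 fold, the 5 widest with a wide NIH3T3 peak, with no other list, without a protein-coding gene and with a main gene under 1 TPM. Genes named are those of 15 lists met by a domain, the covered genes with the highest levels and the 5 highest and 5 lowest ratios, beside a few genes chosen after their values were seen. The domains and gene lists were chosen with earlier results of these data known. Alternatives were other widths, joined peaks, stricter q limits, summits in place of overlaps, other covers and other main genes. Python 3.11.15, pandas 2.3.3, NumPy 2.4.6, SciPy 1.17.1 and Matplotlib 3.10.9 were used, and the interval code was tested on simulated intervals.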

Additional observations from a re-analysis of the deposited data

How the results depend on the processing

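The domain count moved from 868 to 1486 at a width of 3000 bp, 332 at 6000 bp, and 2839 where peaks closer than 1000 bp were joined. At 3000 and 6000 bp, H3K27ac met 33.5% and 55.4% of domains, NELFA 16.4% and 33.1%, Ser5p 43.4% and 71.7%, Ser2p 43.7% and 74.4%, NIH3T3 Ctr9 57.7% and 70.2%, and NIH3T3 H3K27ac 29.6% and 45.8%. The main gene's end lay in 50.3% and 67.8%. With a summit inside in place of an overlap, NELFA met 18.4% and NIH3T3 H3K27ac 31.7%, and with −log10 q of at least 5, Ser5p met 49.7% and Ser2p 51.7%. Genes covered numbered 167 at 6000 bp, 1006 with 1 bp of the body and 186 with 80% of it, with median levels of 155 TPM, 35.3 TPM and 149.6 TPM in mESCs. The high class held 75.3% of the covered genes at 6000 bp, and the median log2 ratio was 0.39 with 1 bp of the body. With the gene of highest TPM as main gene, 63.0% of domains held its end. Super enhancers met 8.43% of domains at 6000 bp, and held the Ctr9 summit of 3.80%. The other 25 of the 57 alternatives stayed within the interval of the reported share, or within 1.5 times the reported count or median, and no direction turned. Shares therefore depend on the width that defines a domain, and a mark below a caller's limit would be missed, with the ChIP-seq depth reached not known here. No paired analysis was possible because each group was 1 library.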
